A study of Mus musculus with 16 samples.

Results

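The genes described here are 36 listed genes of the netrin, Slit and Eph/ephrin guidance systems, with the secreted protein Reelin and the membrane protein Slitrk6. The list was drawn up by gene name, with earlier results of these data known. Of the 36 genes, 35 had a probe set that carried their symbol alone, out of 19938 genes with such a probe set on the array, and Ephb2 is not analysed here. They fell into 8 A-type and 4 B-type Eph receptors, 5 A-type and 3 B-type ephrins, 3 Slits, 2 Robo receptors, 2 netrins, 6 netrin receptors, and Reln and Slitrk6. Total RNA came from tooth germs of untreated C57Bl6 embryos at E14.5 and was hybridized to Affymetrix Mouse Gene 1.0 ST arrays. There were 8 mandibular molar, 4 lower incisor and 4 maxillary molar samples, each made from 4 pooled tooth germs, and no group carried a transgene or an induced mutation. All values are log2 signals after RMA, a procedure that corrects background, puts all arrays on 1 distribution and summarizes the probes of each set. A log2 fold change is the mean of the mandibular molars minus that of the other group, and its error is a standard error (SE), while errors of means are SD. A gene passed at an adjusted p under 0.1 and a fold change above 1.2.

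Guidance proteins were first known for steering axons and migrating cells, and they also act in epithelia, mesenchyme and vessels. Netrins are secreted and attract cells that carry Dcc or Neogenin, whereas receptors of the Unc5 family turn the response to repulsion. Slits are large secreted proteins that repel cells through Robo receptors. Eph receptors are tyrosine kinases that meet ephrins on the neighbouring cell, A-type ephrins being held by a lipid anchor and B-type ephrins crossing the membrane, and signals run into both cells. In teeth the germ forms from oral epithelium and neural crest mesenchyme, and sensory axons grow towards the germ without entering the dental papilla at early stages.

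The stretches before the annotated starts of 5 of these genes are given here because they stand for the groups of genes that moved together between tooth types. Unc5c, Reln and Slitrk6 were lower in mandibular molars than in lower incisors, and Epha3 and Epha7 were lower in mandibular molars than in those of the maxilla. The sequences are those of RefSeq on GRCm38.p6, 5′ to 3′ on the strand of the gene, limited to bases outside the annotated gene within 250 bases of a listed start. Capitals mark matches to CANNTG, the E-box bound by basic helix-loop-helix factors. TAATTA, a core of homeodomain sites, was searched for as well. Both motifs read the same on both strands, they cannot overlap each other, and a match is no evidence of binding.
Unc5c, chr3:141465314-141465563, plus strand: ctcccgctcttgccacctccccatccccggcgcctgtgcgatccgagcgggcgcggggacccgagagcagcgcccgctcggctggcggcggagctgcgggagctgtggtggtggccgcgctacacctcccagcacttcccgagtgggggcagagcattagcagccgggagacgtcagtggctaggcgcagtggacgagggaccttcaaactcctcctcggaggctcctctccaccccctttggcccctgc
Reln, chr5:22344706-22344955, minus strand: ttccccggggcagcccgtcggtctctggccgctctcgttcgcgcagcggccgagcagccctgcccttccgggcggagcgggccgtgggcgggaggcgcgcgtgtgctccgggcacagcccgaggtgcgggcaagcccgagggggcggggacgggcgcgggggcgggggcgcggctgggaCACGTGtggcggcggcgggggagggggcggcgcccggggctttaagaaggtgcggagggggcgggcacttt
Slitrk6, chr14:110755205-110755399, minus strand: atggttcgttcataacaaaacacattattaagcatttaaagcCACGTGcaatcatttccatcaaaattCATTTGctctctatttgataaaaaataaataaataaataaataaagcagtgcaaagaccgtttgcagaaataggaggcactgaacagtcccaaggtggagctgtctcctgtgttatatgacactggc
Epha3, chr16:63864176-63864425, minus strand: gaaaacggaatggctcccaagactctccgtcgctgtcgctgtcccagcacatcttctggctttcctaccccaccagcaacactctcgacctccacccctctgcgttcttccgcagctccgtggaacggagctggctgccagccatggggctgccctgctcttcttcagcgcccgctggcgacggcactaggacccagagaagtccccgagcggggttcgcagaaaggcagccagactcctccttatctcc
Epha7, chr4:28812881-28813065, plus strand: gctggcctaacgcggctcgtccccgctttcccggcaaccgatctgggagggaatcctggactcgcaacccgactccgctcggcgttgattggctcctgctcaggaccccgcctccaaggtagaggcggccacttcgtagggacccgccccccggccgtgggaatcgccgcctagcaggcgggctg

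TAATTA matched in none of the 5 stretches. The stretch of Slitrk6 held 2 CANNTG matches and that of Reln 1, and those of Unc5c, Epha3 and Epha7 held none. Over all 27025 genes with a listed promoter, 66.0% held CANNTG and 4.90% held TAATTA in 250 bases, and 58.2% and 4.19% did so in 195 bases. In 185 bases the shares were 56.4% and 4.00%. The 30 genes of the group with a listed promoter had CANNTG in 12 (40.0%) and TAATTA in 2 (6.67%). Their median GC content was 65.8%, against 52.0% over all listed promoters. The stretch of Slitrk6 had 35.4% GC and that of Reln 80.0%, so the genes that were lower together in mandibular molars did not share the base composition of their promoters.

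The arrays were alike in level, with medians of 6.80 to 6.99 and 76.1% to 79.2% of probe sets above a log2 signal of 5. All 560 values of the 35 genes lay above 5, so that none entered a comparison through 1 group alone. Markers of tooth identity followed the labels. The molar markers Barx1, Dlx1, Dlx2 and Lhx6 averaged 10.24 to 10.69 in mandibular molars, 8.53 to 8.86 in lower incisors and 10.84 to 11.02 in maxillary molars. The incisor markers Isl1, Hand2 and Alx1 averaged 6.48 to 6.73 in mandibular molars, 9.85 to 10.23 in lower incisors and 7.05 to 7.10 in maxillary molars. The samples also grouped in a way that no label accounts for. Across probe sets, which are not independent replicates, maxillary molars correlated with mandibular molars 5 to 8 at a median r of 0.994 and with mandibular molars 1 to 4 at 0.988, and lower incisors correlated with mandibular molars 1 to 4 at 0.990 and with 5 to 8 at 0.986. For maxillary molars the single pairs did not overlap, at 0.992 to 0.996 and 0.983 to 0.990. For lower incisors they did, at 0.982 to 0.993 with 1 to 4 and 0.983 to 0.991 with 5 to 8. The grouping is therefore less clear for the lower incisors, and single samples need not follow it. The first sample set here means mandibular molars 1 to 4 with the lower incisors, the second means mandibular molars 5 to 8 with the maxillary molars, and each result is given over all samples and within its set. Which embryos or litters went into a pool is not given in the sources used here, and the p-values rest on the spread of these pools alone.

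Between mandibular molars and lower incisors 8 of the 35 genes passed, 4 in each direction. Dcc, Slit2, Ntn1 and Epha6 were higher in mandibular molars, and Unc5c, Slitrk6, Reln and Efnb2 were lower. The 4 higher genes were 11.4% of the group, against 2.75% of all 29258 probe sets tested, and the 4 lower ones were also 11.4%, against 2.18%. With 1 probe set per gene, 5 genes of the group were higher and 5 lower, against 5.71% and 4.08% of 17309 genes. At a fold change above 2 the group held 1 higher gene, Dcc, and 2 lower genes, Unc5c and Slitrk6, where 0.284% of all probe sets were higher and 0.222% lower. Within the first sample set 4 genes were again higher, against 0.948% of all 29100 probe sets, and 3 were lower, against 0.832%, Efnb2 being the gene that no longer passed. Without mandibular molar 2, the higher genes over all samples were 7, and 1386 of all 29170 probe sets were higher. The median log2 fold change of the 35 genes was 0.04, beside -0.02 over all probe sets.

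Receptors of the netrin family moved in opposite directions. Unc5c, which encodes a repulsive netrin receptor, had log2 signals of 8.51 to 8.92 with a median of 8.61 in mandibular molars, against 10.37, 10.02, 10.02 and 10.17 in lower incisors. The lowest incisor sample lay more than 1 log2 unit above the highest mandibular molar. Its log2 fold change was -1.45 (SE 0.10, adjusted p = 3.85e-06), and -1.40 within the first sample set (SE 0.11, adjusted p = 0.000813). Maxillary molars had 8.73, 8.94, 8.83 and 8.56, a level that overlapped that of the mandibular molars and gave a log2 fold change of -0.07 (SE 0.10, adjusted p = 0.697). Unc5c stands on a list of tooth-type genes that the study drew from these same samples, as do Slitrk6 and Reln, so their direction is not independent evidence.

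Dcc, the receptor that mediates attraction to netrin, ran the other way. It had 7.78 to 8.26 with a median of 8.07 in mandibular molars, against 6.77, 7.02, 6.83 and 6.92 in lower incisors, with no overlap. The log2 fold change was 1.14 (SE 0.09, adjusted p = 1.10e-05) over all samples and 1.21 (SE 0.09, adjusted p = 0.000355) within the first set. In maxillary molars Dcc had 8.80, 8.55, 8.37 and 8.05, spread over a wider range than in either other tooth, and the log2 fold change of -0.42 to these samples (SE 0.13, adjusted p = 0.139) did not pass.

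The ligand of both receptors, Ntn1, was higher in mandibular molars than in either other tooth type. Its log2 signals were 8.57 to 8.81 in mandibular molars 1 to 4 and 8.32 to 8.51 in mandibular molars 5 to 8. Lower incisors had 7.79, 7.78, 8.12 and 8.20, and maxillary molars 8.02, 7.88, 7.70 and 7.74. Each mandibular molar sample lay above every sample of the other teeth, although the lowest ones of the second set exceeded the highest incisor by little. The log2 fold change against lower incisors was 0.59 (SE 0.12, adjusted p = 0.0160), and 0.75 within the first set (SE 0.12, adjusted p = 0.0206). Against maxillary molars it was 0.72 (SE 0.11, adjusted p = 0.00529), and 0.56 within the second set (SE 0.08, adjusted p = 0.0276). The mandibular molars themselves differed between the sets by 0.33 (SE 0.08, adjusted p = 0.0376), so the size of either difference depended on the samples taken. Lower incisors and maxillary molars were each set against the same mandibular molars, and both results share those samples.

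The other netrin, Ntn4, had log2 fold changes of -0.07 against lower incisors and 0.10 against maxillary molars (adjusted p = 0.677 and 0.531), with overlapping groups. Unc5a, another repulsive receptor, had 6.93 to 7.39 in mandibular molars and 6.63, 7.01, 6.87 and 6.88 in lower incisors. Its log2 fold change of 0.30 (SE 0.09, adjusted p = 0.102) missed the threshold. Unc5b, Unc5d and Neo1 did not pass either, and the 4 netrin receptors outside the threshold ranged from -0.15 to 0.30. Of the 6 netrin receptors, 1 was thus higher in mandibular molars, 1 was lower and 4 did not pass.

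**Figure D1:**
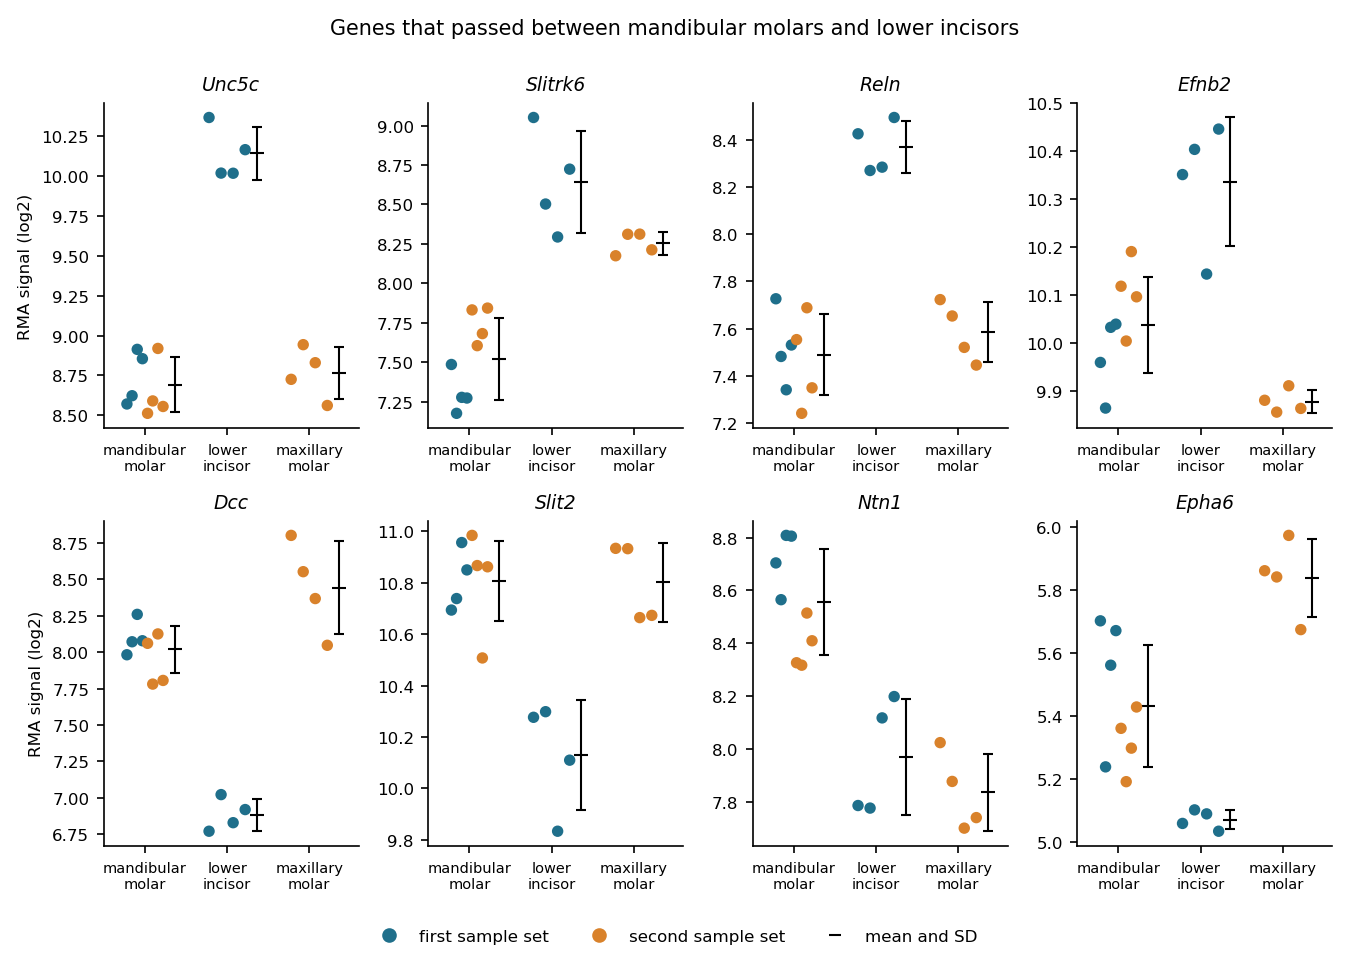
Log2 RMA signal (vertical axes, 1 scale per gene, not starting at 0) of the 8 genes that passed between mandibular molars and lower incisors, with maxillary molars beside them; points are samples, blue for the first and orange for the second sample set, and the bars are means with SD. The 4 incisor points of Unc5c lie at 10.02 to 10.37, above all molars, and those of Dcc at 6.77 to 7.02, below all molars.

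Among the Slits, Slit2 passed. It had 10.51 to 10.98 with a median of 10.86 in mandibular molars, against 10.28, 10.30, 9.83 and 10.11 in lower incisors. The groups did not overlap, and the log2 fold change was 0.68 over all samples (SE 0.10, adjusted p = 0.00233) and 0.68 within the first set (SE 0.12, adjusted p = 0.0303). Maxillary molars, with 10.93, 10.93, 10.66 and 10.67, stood at the level of mandibular molars (log2 fold change 0.01, SE 0.09, adjusted p = 0.975), and the mandibular molars of both sets averaged 10.81. Slit2 therefore separated the incisors from both molars, with no difference passing between the molars.

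Slit3, the Slit with the highest mean signal of its family, averaged 10.85 ± 0.21 (n = 8) in mandibular molars and 10.58 ± 0.09 (n = 4) in lower incisors, and Slit1 averaged 6.62 ± 0.27 in mandibular molars and 6.34 ± 0.06 in lower incisors. Their log2 fold changes of 0.27 and 0.28 did not pass (adjusted p = 0.200 and 0.277), and within the first set they were 0.12 and 0.06. Robo1, a Slit receptor, averaged 11.20 ± 0.18 in mandibular molars and 11.31 ± 0.13 in lower incisors, and neither Robo1 nor Robo2 passed (log2 fold changes -0.12 and -0.05). The ligand that differed between incisor and molar was thus not matched by a passing difference in Robo1 or Robo2. Robo3 and Robo4, measured as further relatives, did not pass either. Robo4 averaged 8.48 ± 0.30 in mandibular molars and 8.51 ± 0.16 in lower incisors, and Robo3 averaged 5.69 ± 0.14 and 5.82 ± 0.04.

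Reln encodes Reelin, a large extracellular glycoprotein that positions neurons in the cortex through the receptors Vldlr and Lrp8. It had 7.24 to 7.73 with a median of 7.51 in mandibular molars, against 8.42, 8.27, 8.28 and 8.49 in lower incisors. The groups lay apart, with a log2 fold change of -0.88 (SE 0.09, adjusted p = 0.000147) and of -0.85 within the first set (SE 0.10, adjusted p = 0.00477). Maxillary molars had 7.72, 7.65, 7.52 and 7.45 and overlapped the mandibular molars (log2 fold change -0.10, SE 0.09, adjusted p = 0.576).

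Slitrk6 encodes a membrane protein with leucine-rich repeats that is needed for the innervation of the inner ear in mice. Its signals were 7.18 to 7.84 with a median of 7.55 in mandibular molars, against 9.05, 8.50, 8.29 and 8.72 in lower incisors, and 8.17, 8.31, 8.31 and 8.21 in maxillary molars. Mandibular molars had the lowest level, and no sample of them reached either other tooth. The log2 fold change was -1.12 against lower incisors (SE 0.16, adjusted p = 0.00138) and -1.34 within the first set (SE 0.16, adjusted p = 0.00529). Against maxillary molars it was -0.73 (SE 0.13, adjusted p = 0.0137) and -0.51 within the second set (SE 0.07, adjusted p = 0.0173). Mandibular molars 1 to 4 were 0.44 lower than 5 to 8 on the log2 scale (SE 0.09), so that the gap to each other tooth depended on the set here too.

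Efnb2, a B-type ephrin that marks arterial endothelium and also acts in mesenchyme, had 9.86 to 10.19 with a median of 10.04 in mandibular molars, against 10.35, 10.40, 10.14 and 10.45 in lower incisors. Incisor sample 3 lay within the range of the mandibular molars. The log2 fold change was -0.30 (SE 0.07, adjusted p = 0.0420) over all samples, and -0.36 within the first set, where it did not pass (SE 0.08, adjusted p = 0.115). It did not pass either without incisor sample 1, 2 or 4. All 3 B-type ephrins had lower means in mandibular molars than in lower incisors, Efnb3 by -0.31 (SE 0.10, adjusted p = 0.119) and Efnb1 by -0.18, neither of which passed. The 10 endothelial markers averaged 8.96 to 9.14 in mandibular molars and 8.88 to 9.13 in lower incisors, and these ranges overlapped. Their part in the Efnb2 difference was not tested.

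Of the Eph receptors, only Epha6 passed in this comparison. It had 5.19 to 5.70 with a median of 5.39 in mandibular molars, against 5.06, 5.10, 5.09 and 5.03 in lower incisors. These values lie close to the threshold of 5 that served to leave out dim probe sets, and on this log scale a change near background is compressed. The log2 fold change was 0.36 (SE 0.10, adjusted p = 0.0675), and 0.47 within the first set (SE 0.10, adjusted p = 0.0924), and it did not pass without any 1 of incisor samples 1, 2 or 3 or mandibular molars 5 or 8, where the adjusted p reached 0.168. The other 7 A-type receptors had log2 fold changes of -0.04 to 0.31, the 4 B-type receptors of 0.0008 to 0.14, and the 5 A-type ephrins of -0.12 to 0.14, none of which passed. Among these, Epha7 (log2 fold change 0.18, SE 0.11, adjusted p = 0.385) had 10.82 to 11.30 in mandibular molars and 10.68 to 11.09 in lower incisors, Ephb4 had 10.24 to 10.39 in mandibular molars and 10.26 to 10.34 in lower incisors, and Efna5 had 10.60 to 10.96 in mandibular molars and 10.82 to 10.90 in lower incisors.

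**Figure D2:**
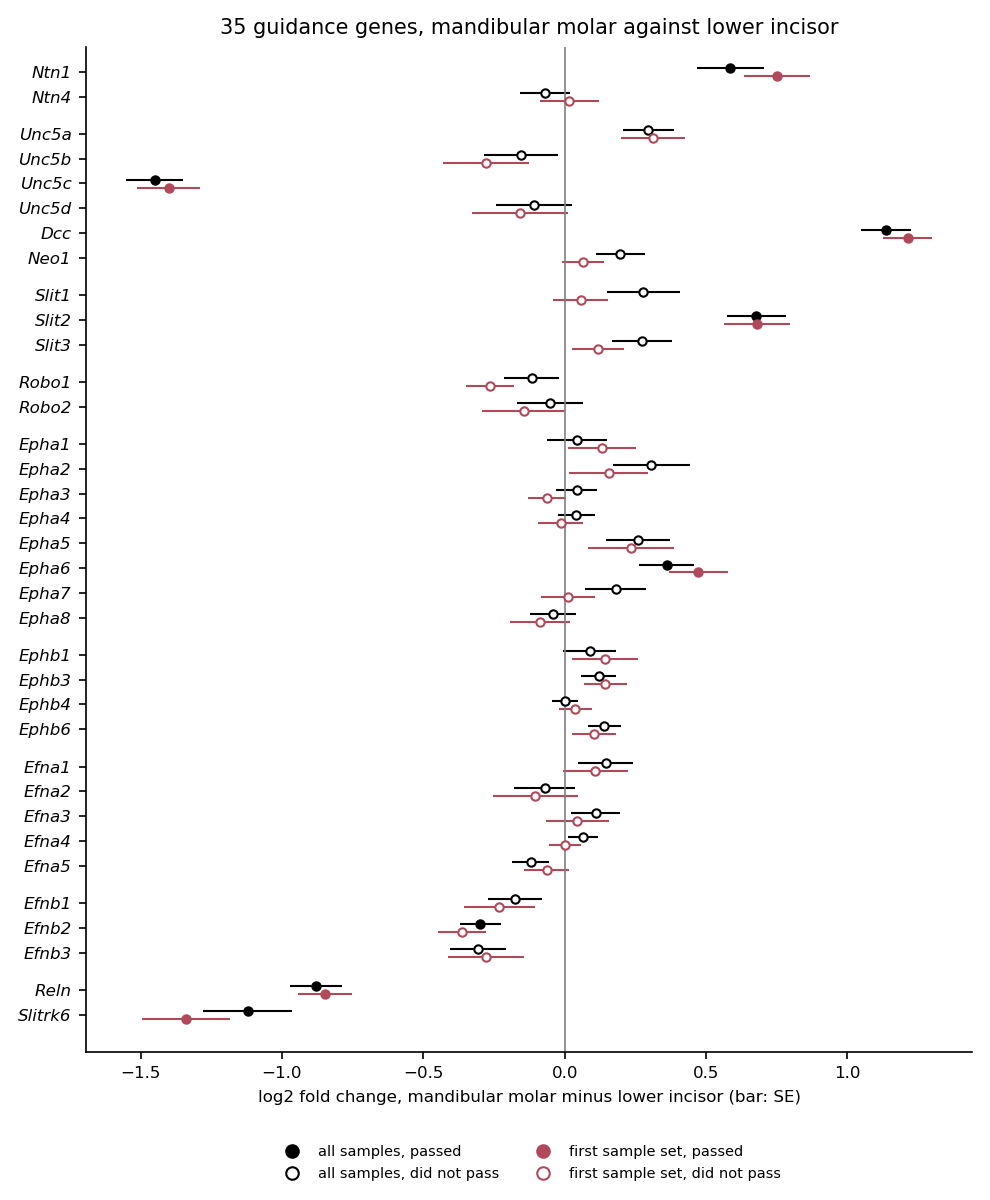
Log2 fold change (horizontal axis, mandibular molar minus lower incisor, with SE) of the 35 genes in rows grouped by family, over all samples in black and within the first sample set in red; filled points passed. Most genes lie within 0.31 of 0, whereas Unc5c at -1.45, Slitrk6 at -1.12, Reln at -0.88 and Dcc at 1.14 lie apart in both fits.

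Markers of cells around the tooth germ also differed between these teeth. The 10 skeletal muscle markers averaged 7.19 to 8.33 in mandibular molars, 8.13 to 8.38 in lower incisors and 6.54 to 6.97 in maxillary molars. The 9 cartilage markers averaged 7.04 to 7.33 in mandibular molars, 7.46 to 8.56 in lower incisors and 7.11 to 7.23 in maxillary molars. Of 8 markers of keratinizing epithelium 7 were measured, and they averaged 6.45 to 7.54 in mandibular molars, 7.41 to 7.87 in lower incisors and 6.69 to 7.39 in maxillary molars. No marker can be read as absent, since the array has no true zero. The 10 neuronal markers averaged 6.87 to 7.37 in mandibular molars, 7.14 to 7.31 in lower incisors and 6.79 to 6.92 in maxillary molars. Of these 10, Nefl passed against incisors with a higher signal in mandibular molars (log2 fold change 1.42, adjusted p = 0.0166), Stmn2 (-1.78, adjusted p = 0.00190) and Gap43 (-0.45, adjusted p = 0.0727) passed with a lower one, and 7 did not pass. Within the first set Nefl and Stmn2 passed again and Nefm passed as well, with a higher signal in mandibular molars. Gap43 did not pass there (adjusted p = 0.336). The part of all these markers in the differences of the guidance genes was not tested. In these pieces of tissue, fewer cells of a type and less RNA per cell cannot be told apart.

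Mandibular and maxillary molars form in opposing jaws, and their comparison asks which genes differ between teeth of 1 kind. Here 7 of the 35 genes passed, of which Ntn1 was higher in mandibular molars and Slitrk6, Epha3, Epha5, Epha7, Epha6 and Neo1 were lower. The 1 higher gene was 2.86% of the group, against 1.01% of all 29068 probe sets, and the 6 lower genes were 17.1%, against 1.18%. With 1 probe set per gene, 1 and 7 genes of the group were higher and lower, against 2.19% and 2.40% of 17193 genes, so the share of higher genes was near that of all genes. No gene of the group passed at a fold change above 2 by limma, nor did any by the test of the methods. Over all 29068 probe sets limma called only 29 higher and 28 lower at that fold change, and the test of the methods 21 and 26. The lack of such a call among 35 genes therefore does not set the group apart. At an unadjusted p under 0.05 limma found 13 of the 35 genes, beside 4971 of all 29068 probe sets. Within the second set 2 genes were higher, Ntn1 and Slit1, against 0.540% of all 28686 probe sets, and 3 were lower, Slitrk6, Epha3 and Epha6, against 0.743%. Without maxillary molar 1 or 2, the lower genes over all samples were 2, where 177 of 29044 and 165 of 29023 probe sets were lower. The median log2 fold change was -0.07 for the 35 genes and 0.02 over all probe sets. Between these teeth the 10 muscle markers did not overlap, at 7.19 to 8.33 in mandibular and 6.54 to 6.97 in maxillary molars, whereas the averages of the neuronal markers did, at 6.87 to 7.37 in mandibular and 6.79 to 6.92 in maxillary molars. Single neuronal markers passed in both directions, over all samples and within the second set: Nefl (log2 fold change 2.22, adjusted p = 0.000802) and Nefm (0.97, adjusted p = 0.0873), which encode neurofilament subunits, were higher in mandibular molars, and Gap43 (-0.45, adjusted p = 0.0977), a protein of growing axons, was lower. Their part in the results was not tested.

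Of the 8 A-type Eph receptors 4 passed, each lower in mandibular molars, and of these Epha3 and Epha6 also passed within the second set. Epha3, a receptor of A-type ephrins, had 10.23 to 10.54 with a median of 10.41 in mandibular molars, against 10.99, 11.01, 10.98 and 10.81 in maxillary molars. There was no overlap, and the log2 fold change was -0.55 (SE 0.07, adjusted p = 0.00213), and -0.45 within the second set (SE 0.06, adjusted p = 0.0137). Mandibular molars 1 to 4 had 10.23 to 10.35 and mandibular molars 5 to 8 had 10.46 to 10.54, a split that did not pass. Lower incisors, with 10.37, 10.36, 10.26 and 10.42, lay within the range of the mandibular molars (log2 fold change 0.04, SE 0.07, adjusted p = 0.773), so Epha3 passed between the molars and not between mandibular molar and incisor.

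Epha5 had 6.55 to 6.95 with a median of 6.80 in mandibular molars and 7.44, 7.51, 7.13 and 7.09 in maxillary molars, again without overlap. Its log2 fold change of -0.51 (SE 0.10, adjusted p = 0.0240) was -0.49 within the second set, where it did not pass (SE 0.11, adjusted p = 0.113). Leaving out maxillary molar 1 or 2 also took it over the threshold, to an adjusted p of at most 0.117. Epha5 is best known from the nervous system, where it takes part in topographic mapping.

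Epha7 had 10.82 to 11.30 with a median of 11.08 in mandibular molars and 11.59, 11.55, 11.66 and 11.29 in maxillary molars. Maxillary molar 4 fell within the range of the mandibular molars. Its log2 fold change was -0.46 (SE 0.11, adjusted p = 0.0547), and -0.29 within the second set (SE 0.08, adjusted p = 0.173), where it did not pass. It did not pass either without any 1 of maxillary molars 1, 2 or 3 (adjusted p of at most 0.197). Between mandibular molars 1 to 4 and 5 to 8 Epha7 also differed, by -0.34 (SE 0.06, adjusted p = 0.0205).

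Epha6 had 5.19 to 5.70 in mandibular molars and 5.86, 5.84, 5.97 and 5.67 in maxillary molars. The highest mandibular molar, at 5.70, came from the first set, and within the second set the groups did not overlap. The log2 fold change was -0.41 over all samples (SE 0.10, adjusted p = 0.0821) and -0.52 within the second set (SE 0.08, adjusted p = 0.0279). Its call rested on single samples, since it passed in only 3 of 12 fits that each left out 1 sample, with adjusted p-values of 0.0542 to 0.247. In RefSeq, Epha6 and Epha3 lie on chromosome 16 with 4 protein-coding genes between them, and Robo1 and Robo2 are neighbours on the same chromosome.

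The 4 A-type Eph receptors that did not pass were Epha1, Epha2, Epha4 and Epha8, at log2 fold changes of -0.15 to 0.16. Neither the 4 B-type receptors, at -0.10 to 0.05, nor the 5 A-type ephrins, at -0.08 to 0.02, nor the 3 B-type ephrins, at -0.01 to 0.16, passed. Efna5, an A-type ephrin that binds several of the A-type receptors, averaged 10.73 ± 0.11 (n = 8) in mandibular molars and 10.81 ± 0.08 (n = 4) in maxillary molars. The receptors that were lower in mandibular molars were therefore not accompanied by a passing difference in any of the 8 ephrins measured. Within the second set no ephrin passed either. Efnb2 came nearest there, higher in mandibular molars by 0.22 (adjusted p = 0.0973), and missed the fold threshold alone.

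**Figure D3:**
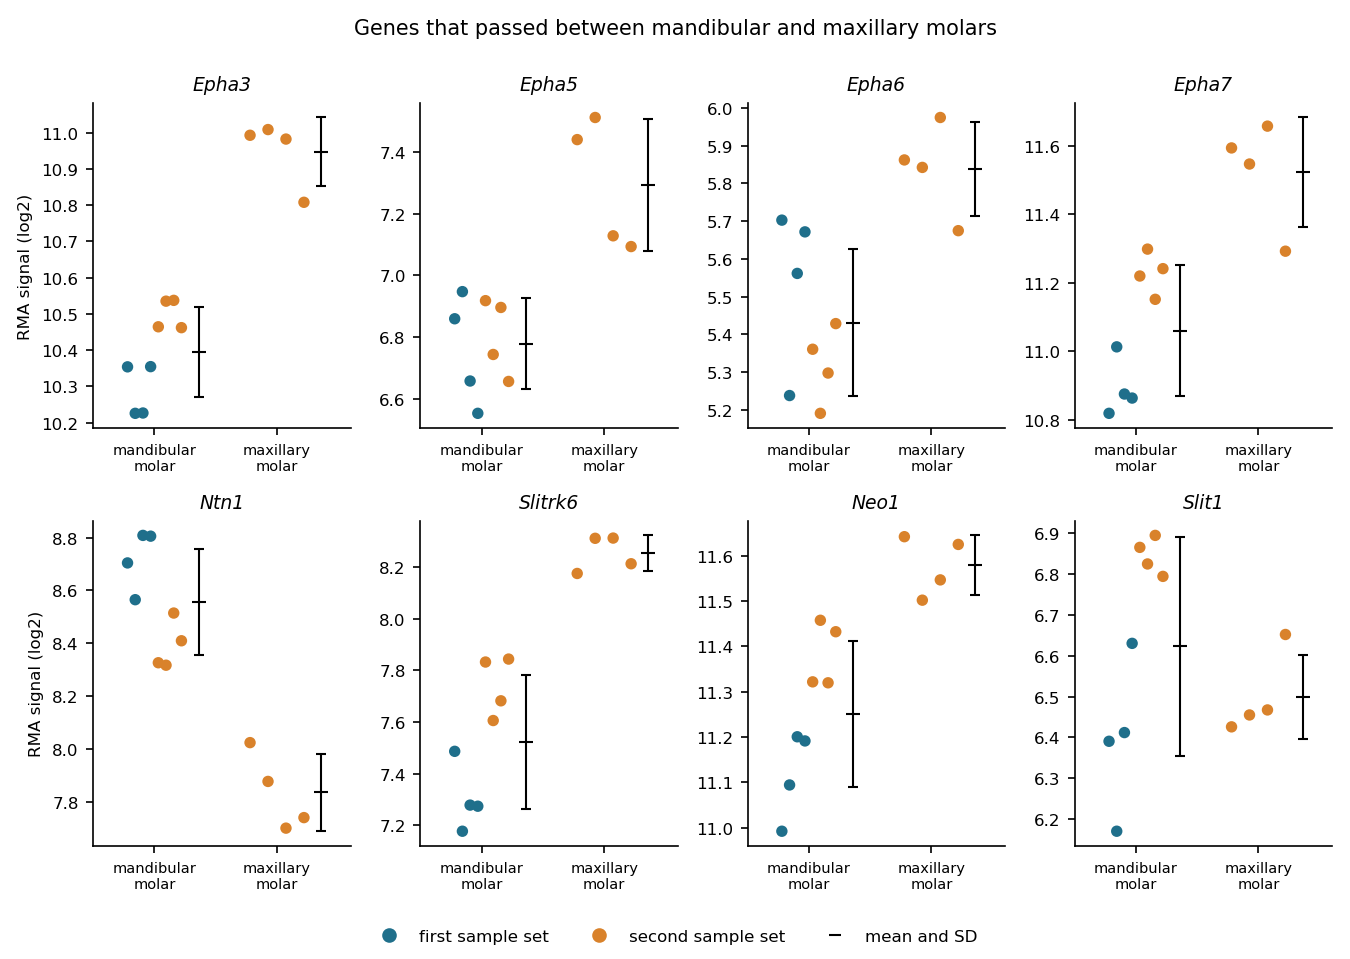
Log2 RMA signal (vertical axes, 1 scale per gene, not starting at 0) of the 8 genes that passed between mandibular and maxillary molars over all samples or within the second sample set; points are samples, blue for the first and orange for the second set, and bars are means with SD. Epha3 lies at 10.23 to 10.54 in mandibular and 10.81 to 11.01 in maxillary molars. The blue and orange mandibular points of Epha3, Epha7, Ntn1, Slitrk6, Neo1 and Slit1 lie apart from each other, and those of Epha5 and Epha6 overlap.

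Neo1 encodes Neogenin, a receptor of netrins and of repulsive guidance molecules that is related to Dcc. It had 10.99 to 11.46 with a median of 11.26 in mandibular molars and 11.64, 11.50, 11.55 and 11.63 in maxillary molars. Although the groups did not overlap, the difference was small, at a log2 fold change of -0.33 (SE 0.08, adjusted p = 0.0869), and it was -0.20 within the second set (SE 0.05, adjusted p = 0.175). It passed in 3 of the 12 fits that each left out 1 sample, the adjusted p-values being 0.0585 to 0.278. Mandibular molars 1 to 4 were lower than 5 to 8 by a log2 fold change of -0.26 (SE 0.07, adjusted p = 0.0507). The 5 other netrin receptors did not pass between the molars, at -0.42 to 0.07. Among them Unc5d, a repulsive receptor with signals of 7.97 to 8.57 in mandibular molars and 8.51, 8.58, 8.53 and 8.97 in maxillary molars, had a log2 fold change of -0.35.

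For Slit1 the outcome depended on the samples used. Mandibular molars 1 to 4 had 6.17 to 6.63 and mandibular molars 5 to 8 had 6.79 to 6.89, against 6.43, 6.46, 6.47 and 6.65 in maxillary molars. Over all samples the groups overlapped, with a log2 fold change of 0.12 (SE 0.13, adjusted p = 0.616). Within the second set mandibular molars were higher by 0.34 (SE 0.06, adjusted p = 0.0456) and did not overlap maxillary molars. Slit3 averaged 10.85 ± 0.21 in mandibular and 11.09 ± 0.05 in maxillary molars, and did not pass, and nor did Robo1, at 11.20 ± 0.18 in mandibular and 11.35 ± 0.04 in maxillary molars, or Robo2 (log2 fold change -0.22).

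**Figure D4:**
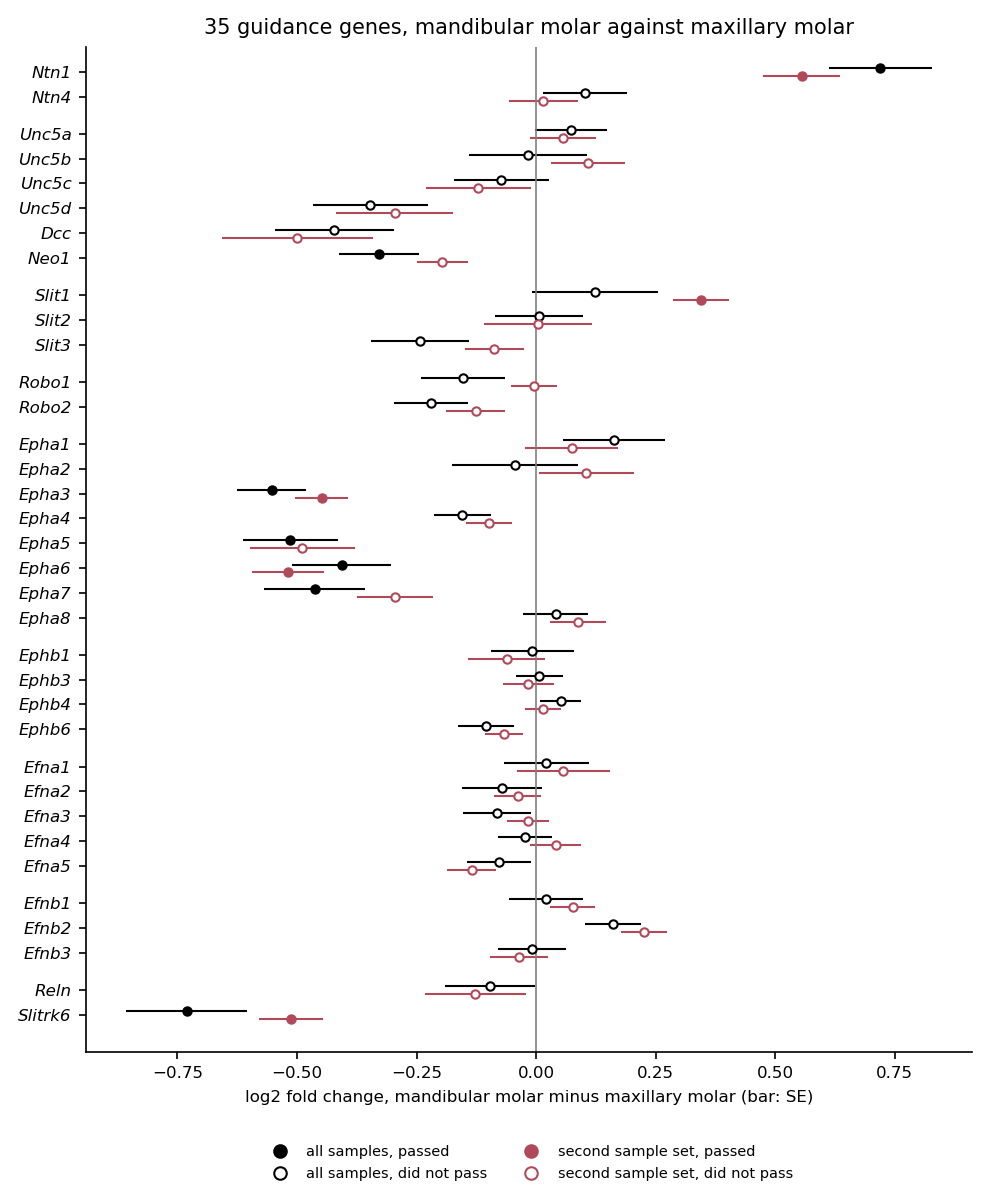
Log2 fold change (horizontal axis, mandibular minus maxillary molar, with SE) of the 35 genes in rows grouped by family, over all samples in black and within the second sample set in red; filled points passed. Ntn1 at 0.72 is the 1 filled black point to the right of 0, and Epha3, Epha5, Epha6 and Epha7, at -0.41 to -0.55, are filled to its left among the A-type receptors.

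Mandibular molars 1 to 4 against 5 to 8 is a comparison inside 1 tooth type. Of the 35 genes 1 was higher in samples 1 to 4, Ntn1, which is 2.86% of the group, against 4.49% of all 28936 probe sets. Another 6 genes, or 17.1%, were lower, against 7.29% of all probe sets: Slit1 (log2 fold change -0.44), Slitrk6 (-0.44), Epha7 (-0.34), Slit3 (-0.31), Robo1 (-0.30) and Neo1 (-0.26). Of these 7 genes Slit1, Slitrk6 and Epha7 passed without any 1 of the samples, whereas Slit3 passed in 2, Neo1 in 4, Ntn1 in 6 and Robo1 in 7 of the 8 fits that left out 1 sample. Unc5c, Dcc, Reln and Slit2 did not pass between the sets, at 0.10, 0.15, 0.06 and 0.0045. The 7 dental epithelial markers averaged 9.86 to 10.56 in samples 1 to 4 and 10.59 to 10.76 in samples 5 to 8, and the muscle markers 7.62 to 8.33 in samples 1 to 4 and 7.19 to 7.81 in samples 5 to 8. The part of these markers in the differences of the guidance genes was not tested.

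Further relatives, ligands and co-receptors of these families were taken from a list of 26 genes, of which 24 were measured. Between mandibular molars and lower incisors 4 (16.7%) were higher and 2 (8.33%) were lower, against 2.75% and 2.18% of all probe sets, or 5.71% and 4.08% with 1 probe set per gene. Within the first set 3 passed, each of them higher, where 0.948% of all 29100 probe sets were higher and 0.832% lower. The median log2 fold change of the list was 0.04. Slitrk5 (0.64, SE 0.11, adjusted p = 0.00526) and Slitrk4 (0.57, SE 0.07, adjusted p = 0.000466), both relatives of Slitrk6 that shape synapses, were higher in mandibular molars and passed within the first set as well. Draxin, a secreted repellent that binds Dcc, was lower (-0.56, SE 0.10, adjusted p = 0.00497) but did not pass within the set (adjusted p = 0.138). Hjv, a repulsive guidance molecule relative of muscle and liver that acts in iron balance, was lower as well (-0.94, SE 0.23, adjusted p = 0.0426) and did not pass within the set (adjusted p = 0.337). The muscle, cartilage and keratinizing epithelium markers given above averaged lower in mandibular molars too. Their part in the Hjv difference was not tested. Slitrk5 stands on the study's own list too.

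Between the molars 3 genes of that list (12.5%) passed, each lower in mandibular molars, against 1.18% of all probe sets and 2.40% with 1 probe set per gene, and the median log2 fold change was -0.02. Slitrk2 averaged 6.89 ± 0.14 (n = 8) in mandibular molars and 7.60 ± 0.14 (n = 4) in maxillary molars, and its log2 fold change was -0.72 (SE 0.08, adjusted p = 0.00106). Slitrk4 averaged 7.21 ± 0.12 in mandibular and 7.83 ± 0.19 in maxillary molars, with a log2 fold change of -0.62 (SE 0.08, adjusted p = 0.00293). Lrp8, a Reelin receptor, averaged 7.91 ± 0.13 in mandibular and 8.28 ± 0.10 in maxillary molars, at -0.37 (SE 0.07, adjusted p = 0.0288). All 3 passed within the second set, where 0.743% of all 28686 probe sets were lower.

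Intracellular and processing partners were taken from a list of 42 genes, 40 of which were measured. Between mandibular molars and lower incisors 4 of the 40 were higher, 1 was lower and 35 did not pass, so that the share of lower genes, 2.5%, was near the 2.18% of all probe sets and below the 4.08% with 1 probe set per gene, while 2.75% and 5.71% were higher. Within the first set 3 passed, each of them higher, where 0.948% of all 29100 probe sets were higher and 0.832% lower. The median log2 fold change was 0.03. Trim9, a ubiquitin ligase that binds Dcc in neurons, was higher in mandibular molars (0.81, SE 0.14, adjusted p = 0.00595), as was Chn2, a Rac GTPase-activating protein related to the Eph effector Chn1 (0.62, SE 0.07, adjusted p = 0.000226). Both passed within the first set. Rgs3, which binds B-type ephrins, was lower (-0.34, SE 0.09, adjusted p = 0.0764) and Fyn, a kinase downstream of Dcc and Reelin receptors, was higher (0.32, SE 0.07, adjusted p = 0.0226), and neither passed within the set. Between the molars 2 of the 40 (5.0%) were higher in mandibular molars, against 1.01% of all probe sets and 2.19% with 1 probe set per gene: Chn2 (0.37, SE 0.05, adjusted p = 0.00447) and Dapk1, a kinase that binds Unc5 receptors (0.32, SE 0.07, adjusted p = 0.0462), and Chn2 passed within the second set.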

How the data were processed

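Each sample was 1 Affymetrix Mouse Gene 1.0 ST array of RNA from 4 pooled tooth germs. The authors deposited log2 signals of 35556 probe sets, made by RMA in Affymetrix Expression Console 1.1, and these were used with no further normalization. Symbols came from the platform annotation: 21789 probe sets had 1 symbol, 1621 several and 12146 none, and 2 genes (Ephb1, Unc5d) with 2 probe sets are given by the one of the higher mean. For each comparison, probe sets above 5 in at least 1 compared sample were fitted in R 4.3.3 with limma 3.58.1 (lmFit, then eBayes), and p-values were adjusted over all of them by Benjamini-Hochberg. All adjusted p-values are from limma. A gene passed at an adjusted p under 0.1 and a fold change above 1.2, and above 2 is given beside it. Arrays have no read depth, so the number of samples limits the precision.

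The genes and lists were chosen with earlier results of these data known. Genes that passed over all samples or within a set are given in full, with the gene of the highest mean in each family and up to 4 genes per further list. The study left out 1 incisor sample that it does not name, so all 4 were used. Alternatives were other filters and normalizations, the Student test of the methods (called the methods' t-test), array weights, trended and robust variances, all 3 tooth types in 1 fit, the sample set or the replicate number as a block, 1 probe set per gene, and each sample left out. The procedure was tested on simulated data drawn without the grouping into sample sets, so that test does not cover calls under this grouping. Promoters came from RefSeq on GRCm38.p6.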

Additional observations from a re-analysis of the deposited data

Results flagged for a closer look

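In the 35 genes and 3 tooth types, 105 groups of samples were searched for a sample far from the others, by the gap to the nearest sample over the range of the group, and 3 groups held one. Chance gives about 1 in 20 groups. Maxillary molar 4 had an Epha3 log2 signal of 10.81, with the other maxillary molars at 10.98 to 11.01, which lies on the side of the mandibular molars. The same sample had an Unc5d signal of 8.97, above the others at 8.51 to 8.58. Mandibular molar 2 had an Epha4 signal of 10.09, below the others at 10.29 to 10.40. The calls of Epha3 did not rest on that sample, since it passed in each of 12 fits that left out 1 sample.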

How the results depend on the processing

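Each comparison between tooth types was repeated under 25 alternatives and the split of the mandibular molars under 10. Unc5c, Dcc, Ntn1, Reln and Slitrk6 passed against lower incisors in all 25, and Ntn1 and Epha3 did so against maxillary molars. Over all named genes, 504 of 593 values kept their direction and side of the threshold, 67 lost the call and 21 gained one, and Slit1 turned to -0.10 between the molars with the replicate block. Of the mandibular samples, that contrast rests on mandibular molars 1 to 4. Against lower incisors, where 8 genes passed (4 higher), array weights gave 13 (8 higher). With array weights the calls over all 29258 probe sets also rose, from 804 higher and 637 lower to 2640 and 2284. Against maxillary molars, where 7 passed (1 higher, 6 lower), the methods' t-test gave 4 (3 lower), the sample set as a block 4 (2 higher, 2 lower), and the second set alone 2 higher and 3 lower. Over all probe sets the main fit called 293 higher and 342 lower, and the methods' t-test 192 and 237. The sample set as a block gave 110 and 169, and the second set alone 155 and 213. Median centring left 4 genes between the mandibular sets and 0 of them higher, where 957 of all 28936 probe sets were higher and 1676 lower. With 1 sample left out the counts were 6 to 11 against lower incisors (3 to 7 higher, 3 to 4 lower, with 7 higher without mandibular molar 2). They were 3 to 7 against maxillary molars (1 higher throughout, 2 to 6 lower, the fewest without maxillary molar 1 or 2). Between the mandibular sets they were 4 to 9 (0 to 2 higher, 3 to 8 lower). Calls over all probe sets moved as well. They were 459 to 1386 higher and 420 to 1041 lower against lower incisors, and 99 to 405 and 165 to 436 against maxillary molars. Between the mandibular sets they were 726 to 2560 higher and 1260 to 2756 lower. Epha6 gave no value with a filter above 6. The other probe set of Unc5d and of Ephb1 did not pass in any comparison.

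Same-numbered samples correlated in their deviations at r = 0.08 to 0.51 (mandibular molar with incisor) and 0.0038 to 0.34 (with maxillary molar), above 0.1 in 3 of 4 pairs each. Among mandibular molars 1 to 4, the same-numbered one had the highest r for 2 of 4 incisors and 3 of 4 maxillary molars. The labels do not say that the numbers pair samples, so the main fits used no pairing. These values do not rule pairing out. With the replicate number as a block 5 genes passed against incisors (2 higher, 3 lower) and 10 against maxillary molars (1 higher, 9 lower). Calls over all probe sets moved the same way. Against incisors the block called 288 higher and 251 lower of 29258, where the main fit called 804 and 637. Against maxillary molars it called 2636 higher and 3196 lower of 29068, where the main fit called 293 and 342. The cause of these changes was not tested.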
